A study of Mus musculus with 3 samples.

Results

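The 4 Hox clusters were examined for Utf1, undifferentiated embryonic cell transcription factor 1, a chromatin-associated protein of pluripotent cells. Members were the listed peaks that overlapped 4 windows on mm9: HoxA on chromosome 6 from 52090000 to 52220000, HoxB on chromosome 11 from 96040000 to 96240000, HoxC on chromosome 15 from 102740000 to 102880000 and HoxD on chromosome 2 from 74490000 to 74610000. Of 152608 peaks listed for biotin-tagged Utf1, 128 lay in these windows, 31 in HoxA, 33 in HoxB, 34 in HoxC and 30 in HoxD. Of 10506 peaks listed for endogenous Utf1, 0 did. No member crossed a window border.

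The libraries came from chromatin immunoprecipitation with sequencing of KH2 cells, an established mouse embryonic stem cell line, in standard serum medium with leukaemia inhibitory factor on feeder fibroblasts. One group carried biotin-tagged Utf1 and another was precipitated for endogenous Utf1, while the whole-cell extract of the series was not analysed here. Each group had 1 library from this 1 line, so no value below has a replicate check and no test was made between groups. The labels give 1 Utf1 antibody for both groups, although by the protocol tagged chromatin was captured on streptavidin beads. The labels used here do not say how the tagged protein was expressed or whether feeder cells were removed before crosslinking.

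Hox genes encode homeodomain transcription factors that set position along the body axis, and in mouse they lie in 4 clusters whose gene order follows their order of expression along that axis. In embryonic stem cells the clusters are largely silent and are known for broad domains of Polycomb-deposited histone H3 lysine 27 trimethylation, with many promoters carrying active histone H3 lysine 4 trimethylation as well. Utf1 is known from earlier work as a factor at such bivalent promoters that limits the binding of Polycomb repressive complexes there. Histone marks, Polycomb proteins and expression were not measured in these libraries.

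The windows hold the genes from Hoxa2 to Hoxa13, Hoxb1 to Hoxb13, Hoxc4 to Hoxc13 and Hoxd1 to Hoxd13, and the listed 38 genes all matched the RefSeq gene table. By gene order in RefSeq (GRCm38.p6), the low-coordinate end of a cluster was the Hoxa2 end in HoxA, but the Hoxb13, Hoxc13 and Hoxd13 end in the others. Low-numbered genes act towards the head and high-numbered genes towards the tail and the ends of the limbs. Positions of single genes on mm9 were not used here, so peaks are described by window and not by gene.

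RefSeq promoter sequences, 250 bases before to 50 after the start, were at hand for 22 of the 38 genes, 24 promoters in all. They covered 9 HoxA, 3 HoxB, 1 HoxC and 9 HoxD genes. The dinucleotide CG, which reads the same on both strands and marks CpG islands, occurred in 24 of 24 Hox promoters and in 94.6% of all 32851 promoters of the table. Its number per Hox promoter ran from 4 to 45 with a median of 14.5, against a median of 7 (interquartile range 3 to 20) over all promoters. At least 10 CG stood in 17 of the 24 and in 43.5% of all promoters. Hoxa9 shared the lowest number with Hoxd4 and a promoter of Hoxd11, and Hoxa13 had the highest. Hoxa9 and Hoxa13 are shown to display that range, as the 250 bases before the start, with each CG in capitals. Both lie on the minus strand of chromosome 6 of GRCm38.p6, Hoxa9 at chr6:52227371-52227620 and Hoxa13 at chr6:52260881-52261130. These coordinates are not those of mm9, and whether a peak lay on either promoter was not determined.
Hoxa9: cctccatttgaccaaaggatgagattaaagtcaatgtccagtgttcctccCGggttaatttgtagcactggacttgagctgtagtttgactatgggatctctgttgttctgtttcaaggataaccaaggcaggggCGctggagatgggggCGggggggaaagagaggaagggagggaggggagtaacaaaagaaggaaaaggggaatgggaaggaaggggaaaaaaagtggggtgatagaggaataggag
Hoxa13: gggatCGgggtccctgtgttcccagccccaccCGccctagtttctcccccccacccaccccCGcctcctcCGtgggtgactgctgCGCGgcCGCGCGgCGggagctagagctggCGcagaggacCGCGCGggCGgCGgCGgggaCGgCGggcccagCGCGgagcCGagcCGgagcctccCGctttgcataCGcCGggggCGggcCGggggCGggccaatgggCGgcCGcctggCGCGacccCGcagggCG
The Hoxa9 stretch held 3 CG and the Hoxa13 stretch 35, so promoters of 1 cluster differed widely in this feature. In HoxD the number ran from 4 (Hoxd4 and a promoter of Hoxd11, whose other promoter held 25) to 37 (Hoxd13). In HoxB it ran from 10 (Hoxb1) to 14 (Hoxb4). The only HoxC promoter, that of Hoxc4, held 9.

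Biotin-Utf1 peaks covered 34.8 to 48.8% of each cluster, at least 10.3 times the median of other autosomal windows of its length. Over the 4 windows, 252 of 590 kb lay under a peak, 42.7%, with 19232 tags, which are sequenced fragments assigned to a peak and are not scaled for depth. Coverage was 48.8% in HoxD, 48.7% in HoxA, 43.2% in HoxC and 34.8% in HoxB. Exact binomial 95% intervals over whole kb were 39.9 to 58.4, 39.6 to 57.4, 35.2 to 52.2 and 28.4 to 42.0% in that order. All of them overlapped one another, so coverage did not separate the clusters. The intervals treat each kb as independent, which neighbouring kb are not.

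Tag density per kb of window differed between the clusters beyond counting error, but its values depended on the window borders. Per kb of window it was 38.9 in HoxA (exact Poisson 95% interval 37.8 to 39.9), 36.2 in HoxD (35.1 to 37.3), 31.5 in HoxC (30.6 to 32.4) and 27.1 in HoxB (26.4 to 27.9), and none of these intervals overlapped another. Per kb of peak, which leaves out bare sequence, the values were 79.8 in HoxA (77.6 to 82.1), 77.9 in HoxB (75.8 to 80.0), 74.1 in HoxD (71.9 to 76.4) and 72.9 in HoxC (70.7 to 75.0). HoxB was thus lowest per kb of window and next to HoxA per kb of peak. Without molecular identifiers, reads are not independent molecules, and these intervals hold counting error alone.

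**Figure D1:**
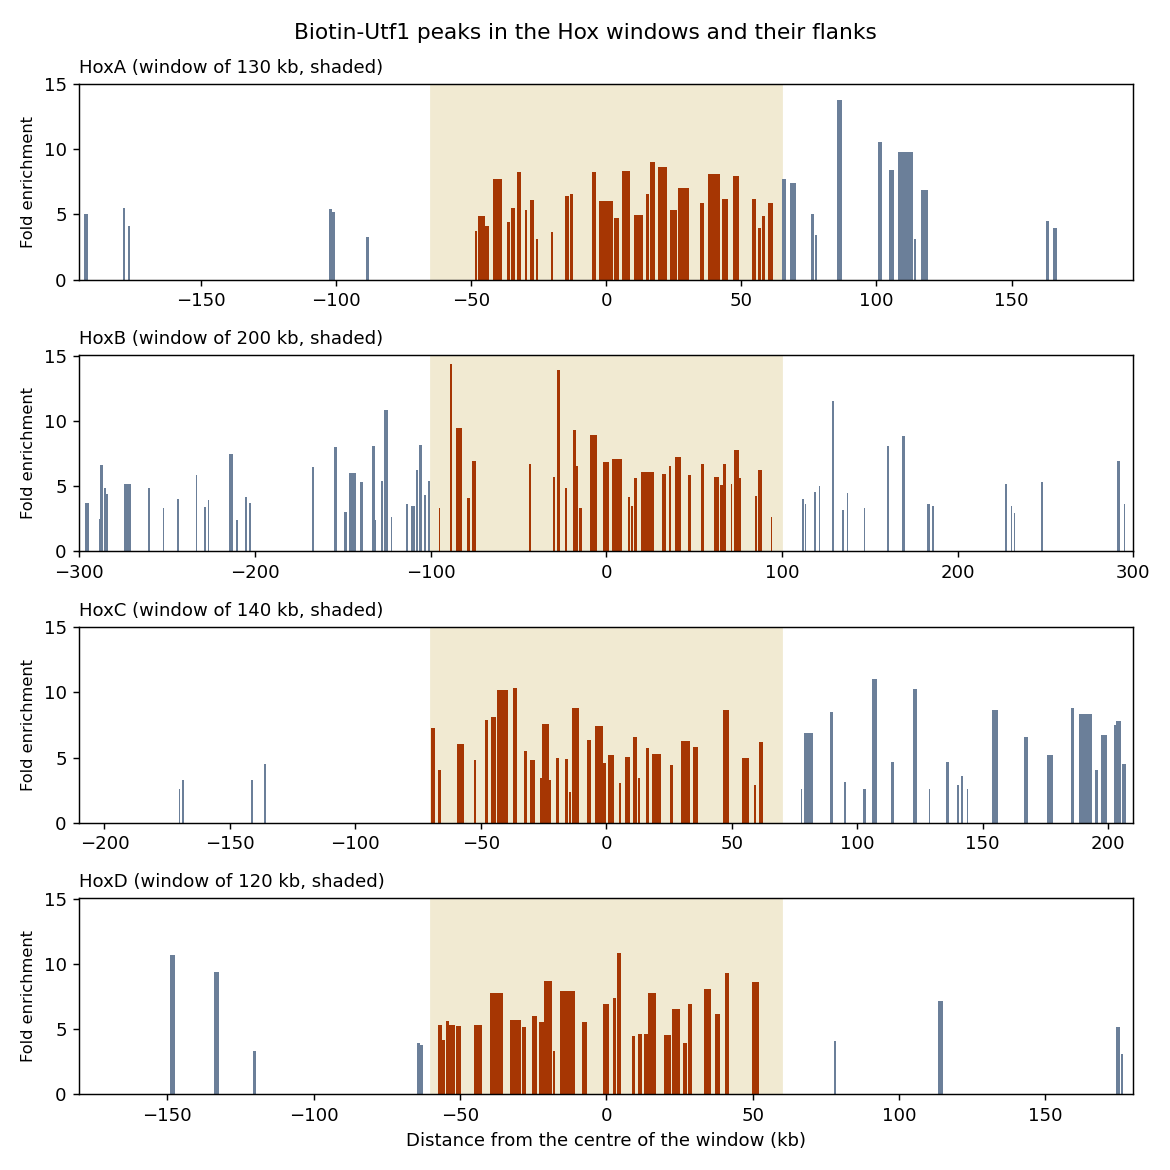
Biotin-Utf1 peaks along each Hox window (shaded) and 1 window length on either side, by distance from the window's centre in kb. Each bar is 1 peak, as wide as the peak and as high as its listed fold enrichment, red inside the window and blue outside. Peaks crowd inside the windows, HoxD stands alone between sparse flanks, and HoxB has a bare interval of 30.1 kb.

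HoxD stood out most sharply from its surroundings. Its 120 kb window held 30 peaks, and its flanks of equal length held 5 and 4. Coverage was 5.39% in the low flank and 3.42% in the high flank, 11.1 times lower on average than in the cluster. Tags per kb of window were 4.74 and 2.87 in the flanks against 36.2. Beyond the last peak, at 74602163, no peak followed for 25.8 kb. On the other side the first peak, at 74492607, had a neighbour 5.34 kb away, and bins of 10 kb in the flanks did not exceed 18.8% coverage. Inside, all 12 bins of 10 kb held a peak and coverage ran from 17.9 to 75.0%.

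Within HoxD the peak with the largest fold enrichment lay at 74553578 to 74555049 and reached 10.86, from 122 tags (101 to 146). The widest spanned 5114 bp from 74534324 to 74539437 and had 459 tags (418 to 503) and a fold of 7.9. The densest, at 74587300 to 74588963, had 111 tags per kb. The weakest peak had a fold of 3.3 and 29 tags. Peaks of HoxD were separated by a median of 1.28 kb, and the longest gap was 7.66 kb, from 74592014 to 74599669. Merging peaks up to 1 kb apart gave a longest stretch of 7.87 kb with 4 peaks, from 74524761 to 74532633.

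HoxA was covered to the same extent as HoxD and, with peaks up to 1 kb apart merged, held the longest run of peaks. Its flanks were 4.63% covered on the Hoxa2 side, with 6 peaks, and 17.1% on the Hoxa13 side, with 12 peaks. The mean of the flanks was 10.8%, and the cluster exceeded it 4.49 times. The first 16.3 kb of the window were bare, part of 39.2 kb without a peak. On the Hoxa13 side the next peak outside followed 3.20 kb after the last one inside, so peaks went on across that border. One 10 kb bin of that flank reached 78.5%, close to the highest bin inside, 81.6%.

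Between 52169721 and 52185610, 5 HoxA peaks formed a merged stretch of 15.9 kb with 1241 tags, the longest of the 4 clusters. Of 111941 other autosomal stretches, single peaks included, 492 were at least as long. The longest stretches of HoxB, HoxC and HoxD were matched or exceeded by 3684, 3301 and 2924 of them. Each of these was the longest of several in its cluster, 16 in HoxA, 23 in HoxB, 25 in HoxC and 17 in HoxD. The counts set it against every single stretch, not against the longest of other windows, so they do not show how rare it was. When peaks up to 3 kb apart were merged, HoxD led with 38.5 kb against 35.9 kb in HoxA. The HoxA stretch of 15.9 kb included the peak with the largest fold of the cluster, 9.04, at 52171032 to 52173162. This peak was also the densest, with 122 tags per kb and 259 tags in all (228 to 293). The widest HoxA peak spanned 5358 bp from 52152195 to 52157552 and had 488 tags (446 to 533) and a fold of 6.07. The weakest, with 26 tags (17.0 to 38.1), had a fold of 3.1. Gaps had a median of 0.966 kb, the shortest of the 4 clusters, and 15 of 30 gaps were up to 1 kb. The longest, from 52142723 to 52149724, was 7.0 kb.

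HoxC had a bare side and a peak-rich side. The low flank, beyond the Hoxc13 end, was 1.90% covered by 4 peaks, whereas the high flank, beyond the Hoxc4 end, was 26.5% covered by 23. The cluster exceeded the mean of both, 14.2%, 3.05 times and the higher of them 1.63 times. The first peak began 0.303 kb inside the window, and the 65.9 kb before it held no peak. All 14 bins of 10 kb held a peak, at 14.3 to 65.7% coverage.

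The HoxC peak with the largest fold and the widest HoxC peak were neighbours on the low-coordinate side. The largest fold, 10.34, was that of a peak of 1340 bp at 102772937 to 102774276 with 157 tags (133 to 184). Its neighbour at 102766644 to 102770905 was the widest of the cluster, 4262 bp, with a fold of 10.17 and 379 tags (342 to 419). The densest, at 102796474 to 102799054, had 119 tags per kb. HoxC also held the weakest member of all, with a fold of 2.36 and 30 tags. Gaps had a median of 1.65 kb, and the longest was 9.76 kb, from 102846690 to 102856448. The longest merged stretch was 7.44 kb, from 102805637 to 102813080.

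HoxB was the least set apart from its region and held the strongest single peaks. Its low flank was 23.1% covered by 32 peaks and its high flank 10.2% by 19, so the cluster exceeded the mean of 16.7% by 2.09 times and the higher flank by 1.51 times. In the 5 Mb around its centre, peaks outside the cluster numbered 169 per Mb, against 165 per Mb inside. For HoxA, HoxC and HoxD the same counts were 74.7, 105 and 61.7 per Mb outside and 238, 243 and 250.0 inside. By coverage HoxB did exceed the 5 Mb around it, at 34.8 against 27.7%.

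A gap of 30.1 kb, from 96065699 to 96095821, parted HoxB into 2 blocks. It made up 25.2% of the uncovered sequence between HoxB peaks, and 6 HoxB gaps reached 5 kb, against 1 in HoxA, 3 in HoxC and 2 in HoxD. A gap at least that long followed 12.1% of other autosomal biotin peaks. Below the gap, 5 peaks covered 45.5% of 20.8 kb, and above it 28 peaks covered 43.5% of 139 kb. Over the span from the first to the last peak, HoxA was 57.2% covered, HoxD 53.5%, HoxC 45.9% and HoxB, its gap included, 36.8%. By gene order Hoxb13 is the outermost gene at the low-coordinate end and Hoxb9 its neighbour among the listed genes. Whether the gap lies between them was not determined.

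The strongest members of all 4 clusters were both in HoxB. The peak at 96050796 to 96052393, in the smaller block, had a fold of 14.32 and 233 tags (204 to 265), or 146 tags per kb. The peak at 96111742 to 96113934 had a fold of 13.91, 268 tags and 122 tags per kb. It falls outside the rule for naming peaks and was picked after its value was seen. The widest member, 6958 bp from 96160041 to 96166998, also lay in HoxB and had 622 tags (574 to 673) and a fold of 6.07. At the other end, the narrowest, 631 bp with 24 tags, opened the cluster. The longest merged stretch, 7.03 kb from 96201335 to 96208364, was hardly longer than that widest peak.

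The 2 sides of each window differed in coverage, by amounts that depended on the borders and, in HoxC, without a stable direction. No interval was made for these differences. In HoxA the first 50% of the window was 35.5% covered and the second 61.9%, the Hoxa13 side being the higher. That difference, −26.4 points for the low minus the high side, became −13.4 points over the span from the first to the last peak. In HoxD the Hoxd13 side had 55.8% and the Hoxd1 side 41.9%, a difference of 13.9 points that became 8.34 with borders 10 kb inward. In HoxC the Hoxc13 side had 48.0% and the Hoxc4 side 38.5%, a difference of 9.52 percentage points. It became 5.99 with borders 10 kb outward and turned to −0.41 when the span from the first to the last peak was divided instead. In HoxB the Hoxb13 side, which holds the long gap, had 25.5% and the Hoxb1 side 44.2%, a difference of −18.7 points that became −11.4 with borders 10 kb outward. No single direction along the gene order held for all 4.

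**Figure D2:**
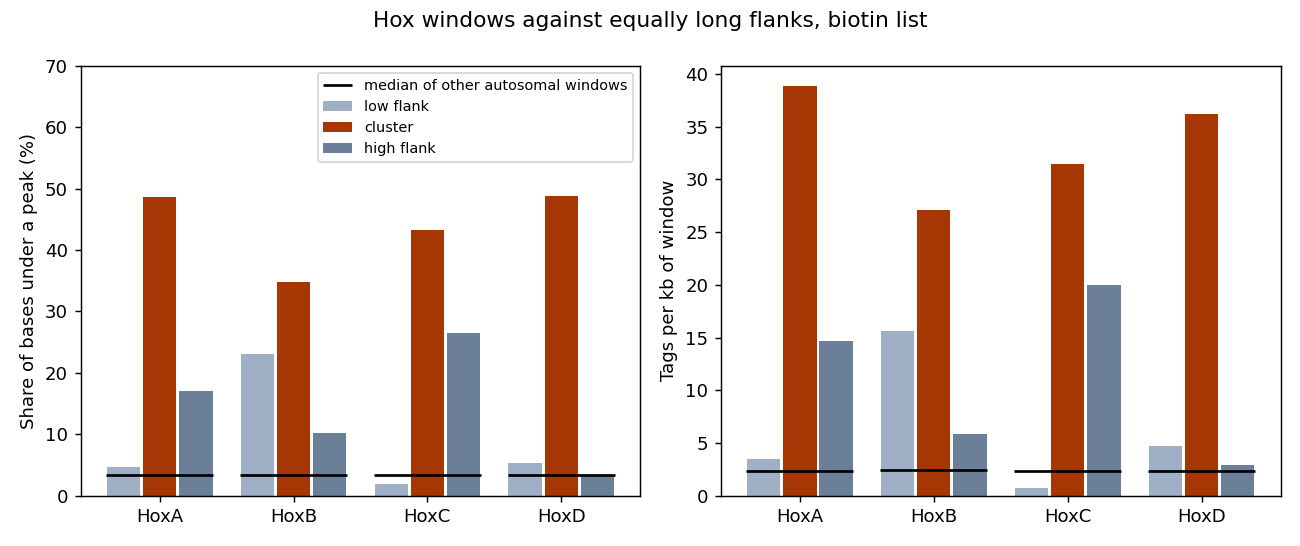
Share of bases under a biotin peak (left, in %) and tags per kb of window (right) in each Hox window (red) and in 1 window length below and above it (blue); black lines give the median of other autosomal windows of the same length. Each cluster exceeds both of its flanks, from 1.51 times the higher flank in HoxB to 9.05 times in HoxD by coverage.

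Among other autosomal windows of the same length, few were as covered as a Hox cluster, 363 to 632 for each length. Windows tiled the 19 autosomes without overlap, leaving out the clusters and their flanks. The median window was 3.34% covered at 130 kb, 3.40% at 200 kb, 3.32% at 140 kb and 3.34% at 120 kb. These medians include windows without any biotin peak, in that order 2205, 838, 1852 and 2628. HoxA exceeded that median 14.6 times, HoxD 14.6 times, HoxC 13.03 times and HoxB 10.3 times. Coverage at or above that of HoxA was found in 363 of 18992 windows, 1.91%. For HoxD it was 409 of 20571, 1.99%, for HoxC 512 of 17633, 2.90%, and for HoxB 632 of 12336, 5.12%. When clusters and windows were both taken from peaks with a fold of at least 5, the shares were 0.486% for HoxD, 0.779% for HoxA, 1.02% for HoxC and 1.35% for HoxB, so that HoxD was then the rarest. The clusters therefore lay in the upper tail without reaching its end, where single windows were covered up to 91.2% at 130 kb.

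Tags and peak numbers ranked the clusters somewhat differently. By tags per kb of window, 0.979% of windows stood at or above HoxA, 1.44% at or above HoxD, 2.28% for HoxC and 3.35% for HoxB. By number of peaks the shares were 4.64, 3.77, 4.15 and 10.9% for HoxA, HoxD, HoxC and HoxB. Each cluster thus ranked higher by covered sequence and tags than by how many peaks it held. By the median width of the peaks in a window, 8.41% of windows with a peak stood at or above HoxA, 4.65% at or above HoxB, 12.5% for HoxC and 6.21% for HoxD.

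Chromosomes differed in their share of such windows. On chromosome 6, 6 of 1146 windows, 0.524%, were as covered as HoxA, and on chromosome 2, 48 of 1510, 3.18%, were as covered as HoxD. On chromosome 15 the count was 43 of 735, 5.85%, for HoxC. On chromosome 11, where the median window was 7.84% covered, it was 62 of 605, 10.2%, for HoxB. Relative to its own chromosome, HoxA was thus the rarest of the 4 and HoxB the most ordinary.

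**Figure D3:**
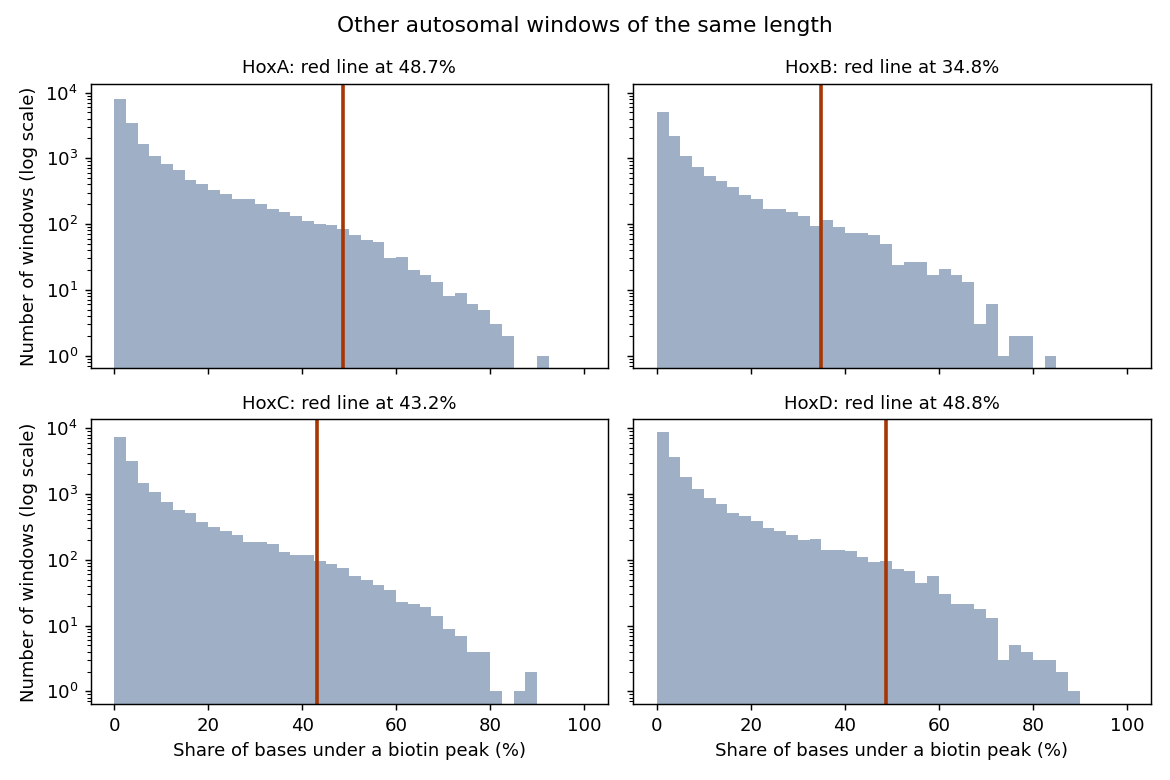
Number of other autosomal windows (log scale) by the share of their bases under a biotin peak (bins of 2.5 percentage points), 1 panel for each cluster with windows of its length; the red line marks the cluster. The lines stand at 34.8 to 48.8%, beyond most windows and short of the most covered ones.

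Member peaks were wider in the median than the other autosomal peaks of the list. Their median width was 1588 bp (interquartile range 1226 to 2461), against 1085 bp (852 to 1603) for the 149370 other autosomal biotin peaks. At least 2 kb was reached by 46 of 128 members, 35.9% (exact Clopper-Pearson 95% interval 27.7 to 44.9), against 15.1% of the others, and by 11 or 12 members in each cluster. Under 1 kb lay 15 members, 11.7% (6.71 to 18.6), against 41.7%. At least 5 kb was reached by 4 members, 1 in HoxA, 2 in HoxB and 1 in HoxD, which is 3.13% (0.858 to 7.81) against 1.12%, an interval that includes the background. Peaks of 1 cluster are not independent draws, so these intervals hold counting error alone. Other windows covered at least as much as HoxA, HoxB, HoxC or HoxD had a median width of 1491.5, 1361, 1447.5 or 1532 bp. In that order the clusters had 1559, 1617, 1435.5 and 1653 bp. Against these windows, all as covered as the cluster or more, the excess in width was thus smaller, and HoxC showed none. Windows matched in coverage from both sides were not compared.

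Fold enrichment, the ratio listed by the authors for each peak, was higher in the median than elsewhere. It ran from 2.36 to 14.32 over the members, with a median of 5.86 (4.83 to 7.24), against 4.14 (3.28 to 6.03) for other autosomal peaks. A fold of at least 5 was listed for 91 of 128 members, 71.1% (62.4 to 78.8), against 37.0%. A fold of at least 10 was listed for 5, 3.91% (1.28 to 8.88), against 4.75%, so very strong peaks were about as frequent as elsewhere. Those 5 were 2 in HoxB, 2 in HoxC and 1 in HoxD. The cluster medians were 6.07 in HoxA and HoxB, 5.68 in HoxD and 5.39 in HoxC, within the interquartile range of the members.

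Within a width class, Hox peaks and other peaks had overlapping interquartile ranges of fold. Among peaks of 2 to 5 kb the median fold was 7.13 (5.86 to 8.30) for 42 members and 6.89 (5.17 to 8.96) for others, and tags per kb of peak were 83.8 and 76.5. Among peaks of 1 to 2 kb the fold was 5.63 (4.82 to 6.55) for 67 members and 4.83 (3.79 to 6.68) for others, with 63.1 and 53.3 tags per kb. Under 1 kb it was 3.30 for 15 members and 3.45 for others. At 5 kb or more it was 6.57 for 4 members and 8.45 for others. Across the members, wider peaks had the larger fold, with Spearman's rho of 0.57 over 128 peaks, and 0.65 over other autosomal peaks. Both values share 1 library, and wider peaks also hold more tags.

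**Figure D4:**
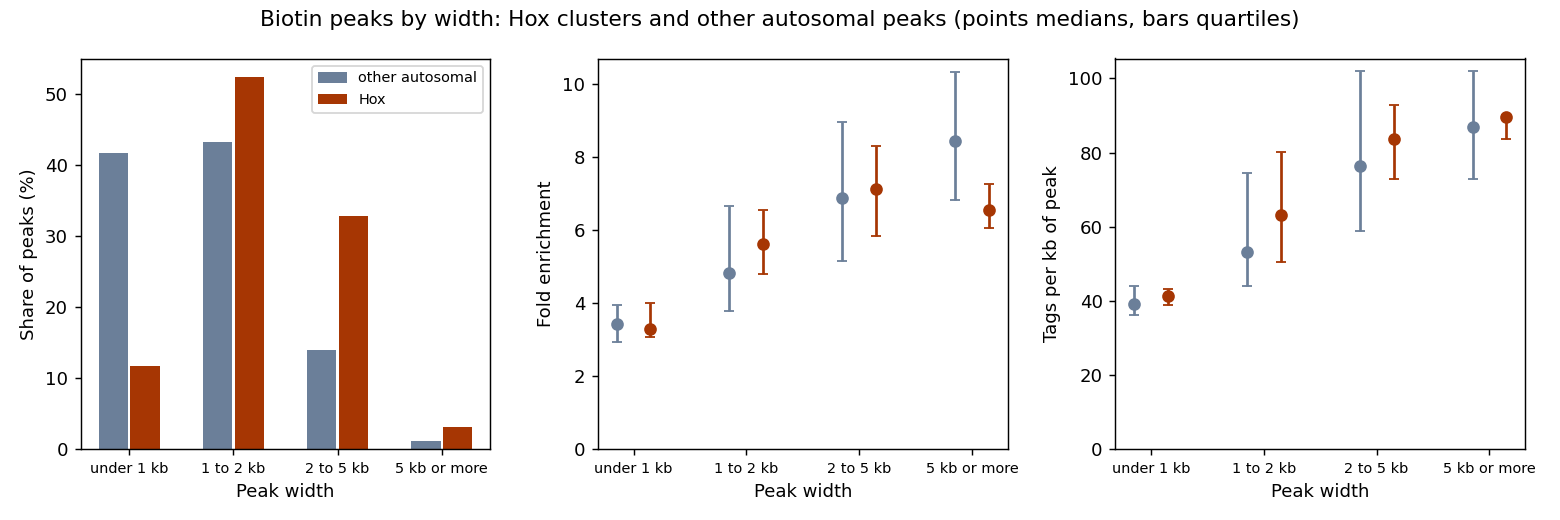
Biotin peaks by width class for the Hox clusters (red, 128 peaks) and other autosomal peaks (blue, 149370): share of peaks in % (left, bars), median fold enrichment (middle) and median tags per kb of peak (right), with lines from the lower to the upper quartile. Hox peaks shift to the 2 to 5 kb class, 32.8 against 14.0%, while quartile ranges within each class overlap.

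Member peaks followed each other more closely than other peaks in the median, with differences between clusters. From summit to summit, the step between neighbours in a cluster was 3.39 kb in the median (2.34 to 5.74), against 5.19 kb (2.57 to 13.5) elsewhere on the autosomes. Pairs of members were counted only inside the windows, whereas pairs elsewhere also span peak-poor regions. Windows of like peak density were not compared, so closer spacing partly restates the high coverage. Up to 1 kb of bare sequence lay between 47 of 124 neighbouring pairs, 37.9% (29.3 to 47.1), against 25.1% elsewhere. The pooled share rested on HoxA, with 15 of 30 pairs (50%), and HoxD, with 13 of 29 (44.8%), while HoxB had 10 of 32 (31.3%) and HoxC 9 of 33 (27.3%). Summits lay near the middle of their peaks, at a median of 49.4% of the width, and at 50.03% in other peaks. Gaps of at least 7.0 kb, the longest of HoxA, followed 35.8% of other autosomal peaks.

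No peak of the endogenous list lay in any Hox cluster. The nearest were 54.3 kb from HoxC, 170 kb from HoxA, 282 kb from HoxD and 405 kb from HoxB. That list held 3.89 peaks per Mb of autosome, and 66.2% of other 130 kb windows, 54.4% of 200 kb windows, 64.3% of 140 kb windows and 68.1% of 120 kb windows had no endogenous peak either. Taken singly, an empty cluster was therefore the usual case at this list length. How often windows of all these lengths are empty together was not assessed. Among the windows covered at least as much as a cluster in the biotin list, 308 of 363 had none at the level of HoxA. The counts were 462 of 632 for HoxB, 421 of 512 for HoxC and 344 of 409 for HoxD. At each length this was a larger share than among all other windows. The list does not give signal below its threshold, so occupancy by endogenous Utf1 in the clusters was not detectable and cannot be called absent.

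Both endogenous peaks in any flank lay beside HoxC. The first, at 102934255 to 102934879 and 54.3 kb beyond the window, had a fold of 3.44 and 24 tags (15.4 to 35.7), and a biotin peak lay 0.55 kb away without overlap. The second, at 102659009 to 102659637 in the bare low flank, had a fold of 1.48 and 14 tags (7.65 to 23.5), and the nearest biotin peak was 8.95 kb away. Folds of the 2 lists may not share a background and were not compared.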

How the data were processed

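Peak lists of 2 libraries were used, 1 for biotin-tagged and 1 for endogenous Utf1. Per the submitters' processing notes, the build was mm9 and BWA 0.5.7 and R 2.15.2 were used, with no role given. Which caller made the peaks, with which settings and control, is not stated in the labels used here. Per the file headers, the authors deposited for each peak a tag count (whole numbers, not scaled for depth), a score of 10 times −log10 p, a fold enrichment as a linear ratio, a false discovery rate in percent, and width and summit in bp. Library depth is unknown: the lists give 14128799 and 276084 tags inside peaks.

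Coverage was the share of a window under peaks. Tags of a peak crossing a border were shared out by length. Flanks were 1 window length on each side. Windows ran from base 1 to the largest listed end of each autosome. Peaks up to 1 kb apart were merged. Named were the strongest, widest and densest peak and the longest gap and stretch of each cluster, and every endogenous peak nearby, with the weakest and narrowest members added afterwards as ends of the range. The gene lists and window borders, and the analyses, were chosen with earlier results of these data known. The overlap code was tested on simulated peaks against base-by-base counts. Alternatives moved thresholds, borders, tiling, flanks and merging. Python 3.11.15 was used with pandas 2.3.3, numpy 2.4.6, matplotlib 3.10.9 and scipy 1.17.1.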

Additional observations from a re-analysis of the deposited data

How the results depend on the processing

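No replicate could be left out, as there was 1 library in each group, and unknown depth limits every statement on peak number. No paired analysis was possible because each group has 1 library. Of 99 alternative values for 26 results, 51 stayed within the 95% interval of the value reported, 47 moved and 1 reversed. Between the sides of a cluster, staying meant within 50% of the width of the coverage interval. Some outcomes were fixed beforehand, namely the endogenous count and coverage by summit, as no member crossed a border. Tags over the width of the peaks are a different quantity and had to move. The tally is therefore not a measure of robustness. The settings on the span from the first to the last peak, on the sides of a cluster, on other windows at a fold of at least 5 and on the width of members at that fold were chosen after seeing the data. The endogenous count stayed at 0, but its alternatives counted only peaks that overlap a window. They could not have raised it, so they were no check.

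At a fold of at least 5, coverage fell to 37.3% in HoxA and 34.4% in HoxC, and 47.3% of members were at least 2 kb wide, against 32.7% of other autosomal peaks at that fold. With both the cluster and the other windows at that fold, the share of windows at or above became 0.779, 1.35, 1.02 and 0.486% for HoxA, HoxB, HoxC and HoxD. In that order the share was 0.524, 10.2, 5.85 and 3.18% on the same chromosome, 0.979, 3.35, 2.28 and 1.44% by tags per kb, 4.64, 10.9, 4.15 and 3.77% by number of peaks and 8.41, 4.65, 12.5 and 6.21% by median width. Among windows with a biotin peak it was 2.16% for HoxA, 3.24% for HoxC and 2.28% for HoxD.

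Tags per kb over the width of the peaks, a different quantity, were 79.8, 77.9, 72.9 and 74.1. With borders 10 kb inward they were 43.8, 29.9, 34.5 and 37.3 per kb of window. With borders 10 kb outward they were 35.7 in HoxA, 28.3 in HoxC and 31.6 in HoxD, and for the stronger 50% of peaks 26.1 in HoxB and 29.1 in HoxC. Flanks of HoxA after a space of 1 window length were 6.62% covered. Merging up to 3 kb apart gave longest stretches of 35.9, 28.7, 29.4 and 38.5 kb, so which cluster held the longest depended on this setting, and merging only touching peaks gave 5.36 kb in HoxA. The difference between the sides became −13.4 points in HoxA and reversed to −0.41 points in HoxC on the span from the first to the last peak, and became −11.4 points in HoxB with borders 10 kb outward. Apart from fewer peaks at stricter thresholds, the cause was not tested.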
